A study of Homo sapiens with 34 samples.

Results

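Chromosome 6 carried 39415 called regions outside a window on the short arm around the main histone gene cluster, of 978086 regions on chromosomes 1 to 22 and X in 20 libraries. A region is a stretch of the genome that the peak caller SEACR marked as covered by released DNA in 1 library. Members were all regions on chromosome 6 that did not touch the window, so they were chosen from the measured lists themselves, and 1314 regions in the window were left out. A library held 278 to 6464 members, with a median of 1369. At the median of libraries the last member before the window ended at 25.28 Mb and the first one after it began at 28.09 Mb, while the first region inside began at 25.99 Mb and the last one inside ended at 27.9 Mb. By total signal the last member before the window stood at percentile 20.99 of its list and the first one after it at percentile 31.8, again at the median. All coordinates are of build hg38.

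Occupancy came from CUT&RUN: a nuclease tethered by an antibody frees the DNA around the bound protein, and the freed DNA is sequenced. The cells were U2OS, an aneuploid human osteosarcoma line, held by a double thymidine block and collected 3 h after release, in early S phase. Libraries were made from 500000 cells fixed in 0.1% formaldehyde for 1 min and read as pairs of 150 bases. Copy number and RNA were not measured, so neither the dosage of chromosome 6 nor the knockdown could be checked. There were 10 groups of n = 2. SMARCA1 was profiled in cells with an siRNA against Orc6 (siOrc6) and in cells with the control siRNA (siGl3), OGG1 likewise, and Orc6 in siGl3 cells. The siRNAs acted for 72 h, and each of these arms was sampled after 5 mM H2O2 for 30 min and without treatment (NT). All 20 libraries thus share the cell line and the synchronisation. In the labels a replicate number stands for a batch, and separate cultures are not mentioned, so p-values measure the spread between these libraries.

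Chromosome 6 is a submetacentric autosome whose short arm holds the main histone gene cluster and the major histocompatibility complex, followed by gene-rich bands, while much of its long arm is gene-poor. SMARCA1 is an ATPase of the ISWI family, which slides and spaces nucleosomes. OGG1 is the glycosylase that starts base excision repair by cutting out 8-oxoguanine, a product of oxidised DNA, and Orc6 belongs to the origin recognition complex, which marks replication origins, as its smallest subunit.

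No library held a region between 28510432 and 33480034 on chromosome 6, a stretch of 4.97 Mb that includes the major histocompatibility complex. That stretch and its genes were not analysed here, and its length was left out of all values below. Another 2 facts bear on the libraries. OGG1 siOrc6 NT replicate 2 stood apart from its own replicate. Over 34 bins of 5 Mb on chromosome 6 their profiles correlated at r = 0.73, and its profile was nearest to that of Orc6 siGl3 NT replicate 1, at r = 0.99, a description over bins of the same chromosome. The files of the 4 SMARCA1 siOrc6 libraries carry a mark of resubmission that no SMARCA1 siGl3 file carries, so that siRNA and resubmission cannot be told apart for SMARCA1.

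The promoters of 9 listed genes are shown because later results rest on regions at these genes. The sequences come from RefSeq (GRCh38.p14) and run from 250 bases before to 50 bases after the gene's start. Capitals mark sequence elements, searched on both strands. The GC box, where factors of the Sp family bind, was searched as GGGCGG. The box bound by NF-Y was searched as its name spells it, CCAAT. The TATA box, which helps to place the start of transcription, was searched as TATAAA. In the first 6 genes a region lay at a gene end in all 20 libraries. EEF1A1 (chr6:73520983-73521282, minus strand) encodes the elongation factor that brings aminoacyl-tRNA to the ribosome, CDKN1A (chr6:36678464-36678763, plus strand) the cyclin-dependent kinase inhibitor p21, and FBXO5 (chr6:152983530-152983829, minus strand) an inhibitor of the anaphase-promoting complex. GCLC (chr6:53545052-53545351, minus strand) encodes the catalytic subunit of the enzyme for the first step of glutathione synthesis. CCN2 (chr6:131951323-131951622, minus strand) encodes connective tissue growth factor and COL12A1 (chr6:75206004-75206303, minus strand) a collagen chain.
EEF1A1: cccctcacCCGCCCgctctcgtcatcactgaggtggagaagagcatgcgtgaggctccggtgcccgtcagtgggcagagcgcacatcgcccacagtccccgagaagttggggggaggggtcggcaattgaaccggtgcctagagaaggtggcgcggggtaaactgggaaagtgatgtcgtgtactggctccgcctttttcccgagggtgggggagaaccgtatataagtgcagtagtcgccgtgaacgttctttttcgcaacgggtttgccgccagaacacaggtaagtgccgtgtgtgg
CDKN1A: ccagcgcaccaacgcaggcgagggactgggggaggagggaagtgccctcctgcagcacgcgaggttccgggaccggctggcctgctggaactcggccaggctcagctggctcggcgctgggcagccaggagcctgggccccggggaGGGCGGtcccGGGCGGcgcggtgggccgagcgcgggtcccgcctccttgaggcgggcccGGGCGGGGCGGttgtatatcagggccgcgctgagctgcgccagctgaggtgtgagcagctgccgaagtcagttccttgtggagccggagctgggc
FBXO5: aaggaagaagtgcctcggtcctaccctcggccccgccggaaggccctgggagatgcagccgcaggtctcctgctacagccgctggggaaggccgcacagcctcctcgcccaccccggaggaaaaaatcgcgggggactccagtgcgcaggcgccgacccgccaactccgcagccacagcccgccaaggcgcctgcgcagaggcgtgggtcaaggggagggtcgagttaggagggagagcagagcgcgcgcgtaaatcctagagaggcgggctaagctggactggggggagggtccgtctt
GCLC: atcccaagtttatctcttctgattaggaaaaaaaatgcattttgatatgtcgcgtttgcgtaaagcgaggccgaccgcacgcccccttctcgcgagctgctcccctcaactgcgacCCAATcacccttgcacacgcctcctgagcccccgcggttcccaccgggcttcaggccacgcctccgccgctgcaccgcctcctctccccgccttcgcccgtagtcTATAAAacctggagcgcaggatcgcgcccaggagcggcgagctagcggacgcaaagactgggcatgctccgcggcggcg
CCN2: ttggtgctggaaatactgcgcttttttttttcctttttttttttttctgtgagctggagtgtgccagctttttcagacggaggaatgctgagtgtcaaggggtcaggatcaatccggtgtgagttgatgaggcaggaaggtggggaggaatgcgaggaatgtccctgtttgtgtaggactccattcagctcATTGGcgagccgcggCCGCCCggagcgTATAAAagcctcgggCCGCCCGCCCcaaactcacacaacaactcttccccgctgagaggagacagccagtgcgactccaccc
COL12A1: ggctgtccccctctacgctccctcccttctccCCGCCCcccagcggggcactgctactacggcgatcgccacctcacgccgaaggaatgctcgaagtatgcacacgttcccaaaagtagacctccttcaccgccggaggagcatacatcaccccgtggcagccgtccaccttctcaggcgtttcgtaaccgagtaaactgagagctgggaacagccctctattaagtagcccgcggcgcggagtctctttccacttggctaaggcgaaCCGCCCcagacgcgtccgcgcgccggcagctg

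Regions at 3 other genes depended on the library. EDN1 (chr6:12287769-12288068, plus strand) encodes endothelin-1, ADGRB3 (chr6:68635032-68635331, plus strand) an adhesion receptor of neurons, and HMGA1 (chr6:34236623-34236922, plus strand) a protein that binds AT-rich DNA in chromatin.
EDN1: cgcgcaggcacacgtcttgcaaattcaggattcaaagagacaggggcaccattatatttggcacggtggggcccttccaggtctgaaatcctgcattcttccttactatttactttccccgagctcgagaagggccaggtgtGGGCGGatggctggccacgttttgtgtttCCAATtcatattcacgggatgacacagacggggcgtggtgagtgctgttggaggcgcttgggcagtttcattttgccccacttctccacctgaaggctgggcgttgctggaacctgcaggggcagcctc
ADGRB3: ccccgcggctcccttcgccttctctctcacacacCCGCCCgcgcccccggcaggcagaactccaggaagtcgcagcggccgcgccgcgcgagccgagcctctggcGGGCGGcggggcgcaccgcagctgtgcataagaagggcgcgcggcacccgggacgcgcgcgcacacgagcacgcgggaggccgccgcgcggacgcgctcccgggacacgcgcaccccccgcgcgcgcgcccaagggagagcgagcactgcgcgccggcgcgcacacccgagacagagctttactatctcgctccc
HMGA1: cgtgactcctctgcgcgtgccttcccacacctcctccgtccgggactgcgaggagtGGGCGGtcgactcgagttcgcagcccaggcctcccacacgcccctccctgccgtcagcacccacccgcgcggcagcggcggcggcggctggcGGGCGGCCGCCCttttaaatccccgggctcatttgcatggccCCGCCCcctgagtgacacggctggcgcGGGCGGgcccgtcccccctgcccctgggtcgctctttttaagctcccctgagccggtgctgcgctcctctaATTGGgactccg
A region covered the printed window in all 20 libraries for EEF1A1, CDKN1A, FBXO5, CCN2 and COL12A1, in 17 for GCLC, in 15 for HMGA1, in 13 for ADGRB3 and in 10 for EDN1. The GC box occurred 5 times in the HMGA1 window and 4 times in the CDKN1A window, and was not found in those of GCLC and FBXO5. Among all 15811 promoters of protein-coding genes in the table, 58.5% held a GC box, 36.3% a CCAAT box and 9.64% a TATA box.

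Chromosome 6 was covered below the autosomal average in every library. Base density is the share of all covered autosomal bases that lies on a chromosome, divided by the chromosome's share of autosomal length, so 1 means as much coverage as an average stretch of the autosomes. Chromosome 6 had a density of 0.364 to 0.683, with a median of 0.546, and was under 1 in 20 of 20 libraries. Regions covered 0.752% to 19.02% of chromosome 6, against 1.12% to 29.2% of the other autosomes. Among the 22 autosomes it ranked 17 to 20 by density. Chromosome 13 was lower in 20 of 20 libraries, chromosome 4 in 16, chromosome 21 in 10, chromosome 9 in 5, chromosome 18 in 2, and chromosomes 16 and 19 in 1 each. No empty stretch was left out of the lengths of the other autosomes, so these ranks and counts compare unlike lengths. With its own stretch kept in the length, chromosome 6 had a density of 0.354 to 0.664, with a median of 0.531. Since the members were defined by these lists, the values are a description with no test.

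**Figure D1:**
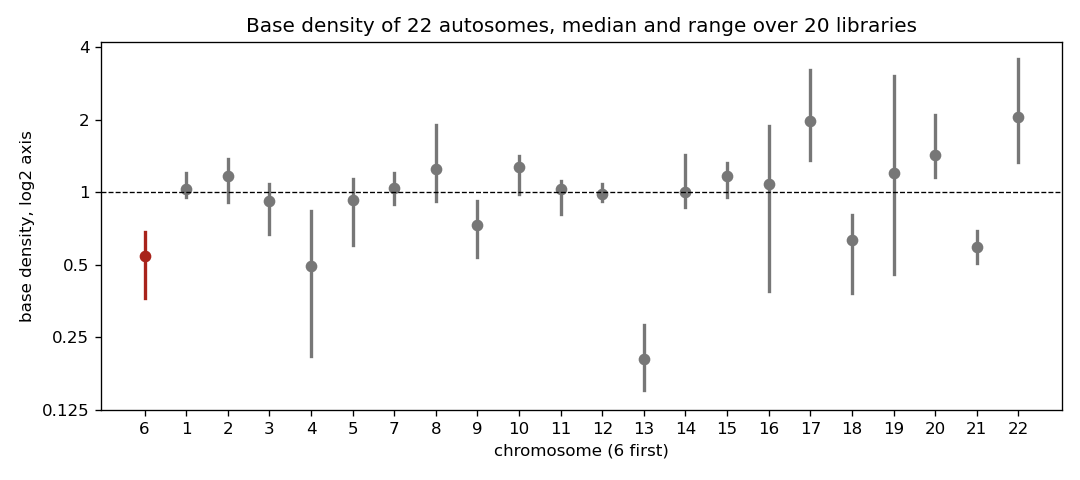
Base density of each autosome (log2 axis), with points for the median and lines for the range over 20 libraries, and chromosome 6 at the left. Chromosome 6 lies between 0.364 and 0.683, wholly under the dashed line at 1.

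The regions themselves were also narrower and of lower rank in most libraries. The median width of a region on chromosome 6 was 1249 to 6636 bp across libraries, against 1271 to 7537 bp on the other autosomes, and was lower on chromosome 6 in 19 of 20 libraries. The median percentile of total signal within a list was 40.9 to 51.3 on chromosome 6, against 50.0 to 50.7 on the other autosomes, again lower in 19 of 20 libraries. Replicates shared less on chromosome 6, where 15.9% to 45.9% of the bases covered in either replicate were covered in both, against 18.7% to 58.5% on the other autosomes. In 9 of 10 groups that share was lower on chromosome 6. Of the chromosome's analysed length, 68.1% was covered in no library and 2.10% in 10 or more, with no such shares given here for the other autosomes.

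Outside the window and the empty stretch, chromosome 6 held 4.92 protein-coding genes per Mb, which would place it 19 of 22 among the autosomes, and by median density it ranked 20 of 22. With the 72 genes of the window and the 172 of the stretch kept, it held 6.15 per Mb and ranked 9 of 22. A gene was called occupied when a region lay within 1 kb of either of its annotated ends. Among 805 protein-coding genes of chromosome 6 outside the window and the empty stretch, 5.59% to 83.1% were occupied, against 8.37% to 84.5% of the genes on the other autosomes. The share was lower on chromosome 6 in 19 of 20 libraries, with a median difference of -5.09 percentage points. The exception was OGG1 siOrc6 H2O2 replicate 1.

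The density of chromosome 6 was lowest in OGG1 libraries of NT cells. In OGG1 libraries it was 0.666 and 0.539 with siOrc6 and H2O2, against 0.379 and 0.547 with siOrc6 and NT. With siGl3 it was 0.666 and 0.621 after H2O2, against 0.364 and 0.385 in NT cells. In SMARCA1 libraries with siOrc6 it was 0.479 and 0.447 after H2O2, against 0.481 and 0.476 in NT cells. With siGl3 the SMARCA1 values were 0.629 and 0.545 after H2O2, against 0.683 and 0.629 in NT cells. Orc6 libraries had 0.601 and 0.611 after H2O2, against 0.526 and 0.657 in NT cells. The 2 siGl3 groups of OGG1 did not overlap, whereas in siOrc6 cells OGG1 NT replicate 2 lay above an H2O2 library.

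**Figure D2:**
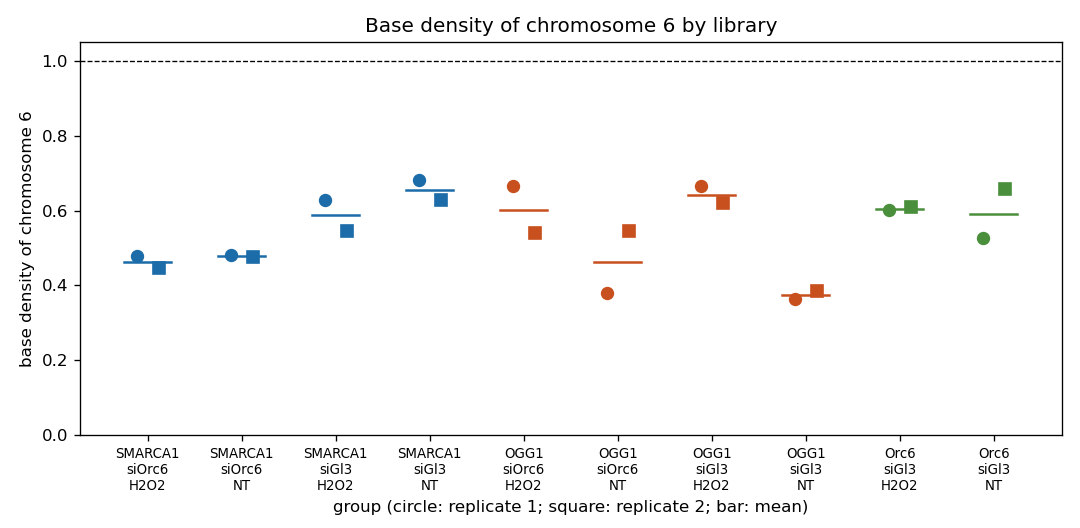
Base density of chromosome 6 in each library by group, with circles for replicate 1, squares for replicate 2 and bars for group means (n = 2). All points lie between 0.364 and 0.683, with the lowest in OGG1 siGl3 NT cells.

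Across all 20 libraries the density of chromosome 6 after H2O2 exceeded that of NT by 0.20 on the log2 scale, which was within the spread of libraries (p = 0.110, exact two-sided permutation of treatment within 5 strata of antibody and siRNA). Adjusted over the 22 autosomes p was 0.340, and 0% of the autosomes passed. The averages were 0.580 ± 0.075 after H2O2 and 0.513 ± 0.117 in NT cells (SD, n = 10 each). Among OGG1 libraries alone the difference was 0.59, with an exact permutation p of 0.111 where 0.0556 is the smallest possible, and H2O2 was higher in 3 of 4 same-numbered pairs. Among SMARCA1 libraries it was -0.11 (p = 0.222, exact permutation) and H2O2 was higher in 0 of 4 pairs. The H2O2 change in SMARCA1 was 0.69 smaller than in OGG1, a log2 difference of -0.69 (p = 0.0154, exact permutation of the interaction), which did not pass after adjustment over the autosomes (p = 0.130). Without OGG1 siOrc6 NT replicate 2 it was -0.83, with an adjusted exact permutation p of 0.0272. In lists of equal length, the 6992 regions of highest total signal of each library, the H2O2 difference over all libraries had the opposite sign, at -0.09.

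Neither siOrc6 nor the antibody changed the density of chromosome 6 past the threshold with all libraries in. Over SMARCA1 and OGG1 libraries siOrc6 minus siGl3 was -0.15 on the log2 scale (p = 0.190, adjusted p = 0.301, exact permutation within 4 strata). Without OGG1 siOrc6 NT replicate 2 it was -0.22 and its adjusted exact permutation p was 0.0392. In SMARCA1, 4 siOrc6 libraries held 0.447 to 0.481 and 4 siGl3 libraries 0.545 to 0.683 without overlap (log2 difference -0.40, p = 0.0556, the smallest this exact permutation can give, adjusted p = 0.0719). In OGG1 siOrc6 libraries ranged from 0.379 to 0.666 and siGl3 libraries from 0.364 to 0.666 (log2 difference 0.09, p = 0.667, exact permutation). Whether the siOrc6 difference itself differed between SMARCA1 and OGG1 was not tested. SMARCA1 minus OGG1 was 0.09 (p = 0.514, exact permutation), SMARCA1 minus Orc6 0.05 (p = 0.667) and OGG1 minus Orc6 -0.28 (p = 0.333). These sizes depended on the lists. In lists of equal length SMARCA1 minus OGG1 was 0.43 (p = 0.0201, adjusted p = 0.0883, exact permutation), SMARCA1 minus Orc6 0.29 and OGG1 minus Orc6 -0.45, and at equal covered bases SMARCA1 minus Orc6 was 1.14 (p = 0.0556, the smallest possible, adjusted p = 0.0694, exact permutation). Counted by number of regions, SMARCA1 minus OGG1 was -0.15 and SMARCA1 minus Orc6 -0.094. The H2O2 change in siOrc6 cells minus that in siGl3 cells was -0.13 (p = 0.696, exact permutation). For SMARCA1 minus OGG1, 13.6% of the autosomes passed after adjustment, chromosome 6 not among them, and 0% passed in each other comparison between siRNAs or antibodies.

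Along the chromosome, coverage gathered in the gene-rich part of the short arm and fell away over the middle of the long arm. Bin density was computed like base density, for 34 bins of 5 Mb. The bins with the highest mean over 20 libraries were the remaining 33.48 to 35 Mb at 2.32, 40 to 45 Mb at 2.25 and 35 to 40 Mb at 1.87. They hold listed genes such as HMGA1 at 33.48 to 35 Mb, CDKN1A, FANCE (a Fanconi anaemia protein) and MAPK14 (the stress kinase p38 alpha) at 35 to 40 Mb, and VEGFA, CCND3 (cyclin D3) and POLH (a polymerase that copies past ultraviolet lesions) at 40 to 45 Mb. The lowest were 65 to 70 Mb at 0.034, 95 to 100 Mb at 0.037 and 100 to 105 Mb at 0.038, which hold ADGRB3, then CCNC (cyclin C) and MMS22L (a replication fork protein), then GRIK2 (a glutamate receptor). Bin density was higher in bins with more genes per Mb, at Spearman's rho 0.41 to 0.79 over 34 bins in single libraries, with a median of 0.70. These bins share their libraries and are neighbours, so the correlation is a description.

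**Figure D3:**
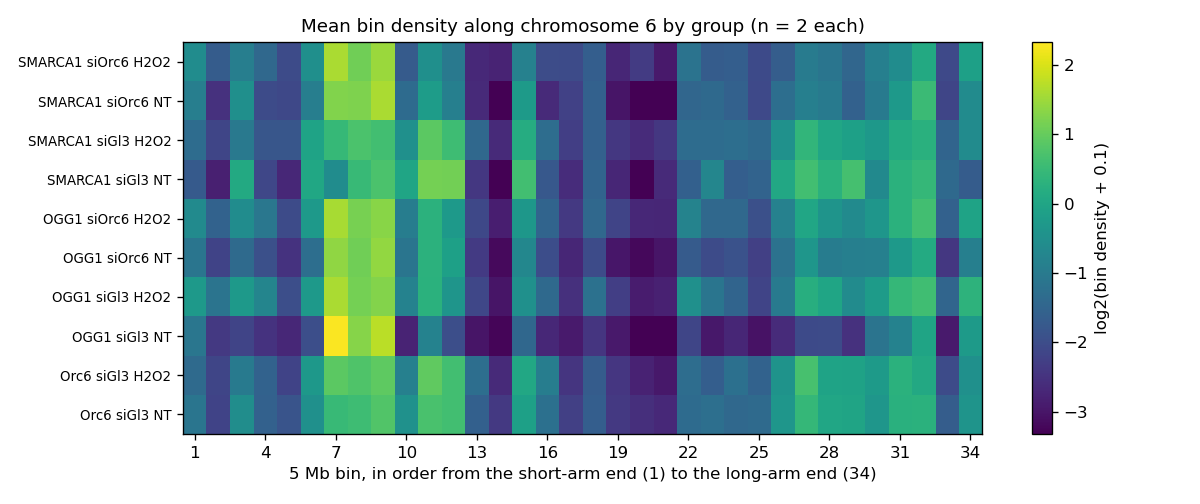
Mean bin density (log2 of density plus 0.1, colour) in 34 bins of 5 Mb in order along chromosome 6, for 10 groups (n = 2 each). Bins 7 to 9 hold the brightest cell of 7 groups, while bin 11 does in SMARCA1 siGl3 and Orc6 siGl3 H2O2 libraries, and bins 11 and 12 are brighter in SMARCA1 siGl3 and Orc6 libraries than in SMARCA1 siOrc6 and OGG1 siGl3 NT libraries.

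The share of coverage in the gene-rich interval differed between groups. The interval of 35 to 45 Mb held 47.6% of all covered bases of chromosome 6 in OGG1 siOrc6 NT replicate 1, and 44.7% and 46.2% in the OGG1 siGl3 NT libraries, but 18.4% in OGG1 siOrc6 NT replicate 2. It held 18.6% to 28.3% in OGG1 libraries after H2O2, 29.6% to 34.1% in SMARCA1 siOrc6 libraries, 10.1% to 18.4% in SMARCA1 siGl3 libraries and 12.4% to 19.4% in Orc6 libraries. SMARCA1 libraries were ordered the other way at 50 to 55 Mb, where MCM3 (a subunit of the replicative helicase) and GCLC lie. There the density was 0.549 to 0.768 in SMARCA1 siOrc6 libraries, against 1.598 to 2.33 in SMARCA1 siGl3 libraries. At 55 to 60 Mb, which holds PRIM2 of the primase, it was 0.340 to 0.539 with siOrc6 against 1.16 to 2.31 with siGl3. At 130 to 135 Mb, which holds CCN2, ENPP1 and SGK1, it was 0.336 to 0.511 with siOrc6 against 0.989 to 1.63 with siGl3.

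Over all 34 bins the SMARCA1 siOrc6 libraries lay wholly above the siGl3 libraries in 4, where 19.9% of all autosomal bins did so, and wholly below in 12, where 34.1% did so. The 4 bins were 0 to 5 Mb and the run from 33.48 to 45 Mb. With 4 libraries against 4 in 2 strata the smallest exact permutation p is 0.0556, so no such bin could pass alone. In OGG1, siOrc6 and siGl3 libraries were separated in 0 bins in either direction, where 0.533% and 0.178% of autosomal bins were higher and lower. Tested over both antibodies, 0 of 34 bins passed for siOrc6 against siGl3 after adjustment over 563 autosomal bins, where 0% passed in either direction, and 1, a higher one, had an unadjusted p under 0.05 (exact permutation), where 2.66% of autosomal bins were higher and 1.07% lower by that rule. For SMARCA1 against OGG1, 0 of 34 bins passed, where 0% passed in either direction, and 4 had an unadjusted p under 0.05, 2 of them higher, where 6.22% were, and 2 lower, where 13.1% were.

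After H2O2 density rose in bins of low or middling coverage. In 8 of 34 bins the density was higher after H2O2 than in NT cells and in 0 it was lower, where 14.7% and 1.78% of 563 autosomal bins passed in those directions (adjusted exact permutation p 0.0215 to 0.0456, log2 differences 0.41 to 0.72 on the scale of density plus 0.1). An unadjusted p under 0.05 was reached by 13 bins, all higher, where 26.8% of autosomal bins were higher and 3.37% lower by that rule. The 8 bins were 5 to 10, 15 to 20, 75 to 80, 90 to 95, 95 to 100, 105 to 110, 145 to 150 and 165 to 170 Mb. Their mean density was 0.037 to 0.662, with a median of 0.225, and the median of all 34 bins was 0.425. At 5 to 10 Mb, which holds TXNDC5 (a disulphide isomerase) and BMP6, the density was 0.099 to 0.375 after H2O2 with a median of 0.214, against 0 to 0.156 in NT cells with a median of 0.088. At 105 to 110 Mb, which holds FOXO3 (a stress-responsive transcription factor) and SESN1, it was 0.233 to 0.650 after H2O2 with a median of 0.374, against 0.120 to 0.377 in NT cells with a median of 0.214. The arms overlapped in both bins.

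Values differed by antibody, a difference that was not tested for single bins. Over the 8 bins the median log2 difference was 0.82 in OGG1, 0.51 in SMARCA1 and 0.04 in Orc6 libraries, and over all 34 bins it was 0.79, 0.12 and -0.01 in the same antibodies. The 8 bins were chosen by the H2O2 difference pooled over these same libraries, so their medians are a description raised by that choice. OGG1 libraries after H2O2 lay wholly above OGG1 NT libraries in 15 of 34 bins and wholly below in 0, where 19.2% and 5.15% of autosomal bins did so. SMARCA1 libraries did so in 3 bins above and 1 below, where 7.28% and 2.49% of autosomal bins did so. In OGG1 and SMARCA1 the H2O2 lists were also longer, with 73301 to 132408 regions in OGG1 libraries after H2O2 against 17813 to 33435 in NT cells, and 35381 to 69927 in SMARCA1 libraries after H2O2 against 6992 to 14791 in NT cells. Orc6 lists overlapped, with 37154 and 52937 regions after H2O2 against 23375 and 63692 in NT cells. No bin (0) passed in lists of equal length, and likewise 0 passed when the replicate number entered as a block. The count of 8 was 1 without SMARCA1 siGl3 H2O2 replicate 1, and 2 without OGG1 siOrc6 H2O2 replicate 1 or without Orc6 siGl3 NT replicate 1. It was 3 without Orc6 siGl3 H2O2 replicate 1, and 4 without OGG1 siOrc6 H2O2 replicate 2 or OGG1 siOrc6 NT replicate 1. It was 5 without SMARCA1 siOrc6 H2O2 replicate 1, SMARCA1 siOrc6 NT replicate 1, SMARCA1 siGl3 NT replicate 2 or Orc6 siGl3 H2O2 replicate 2.

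**Figure D4:**
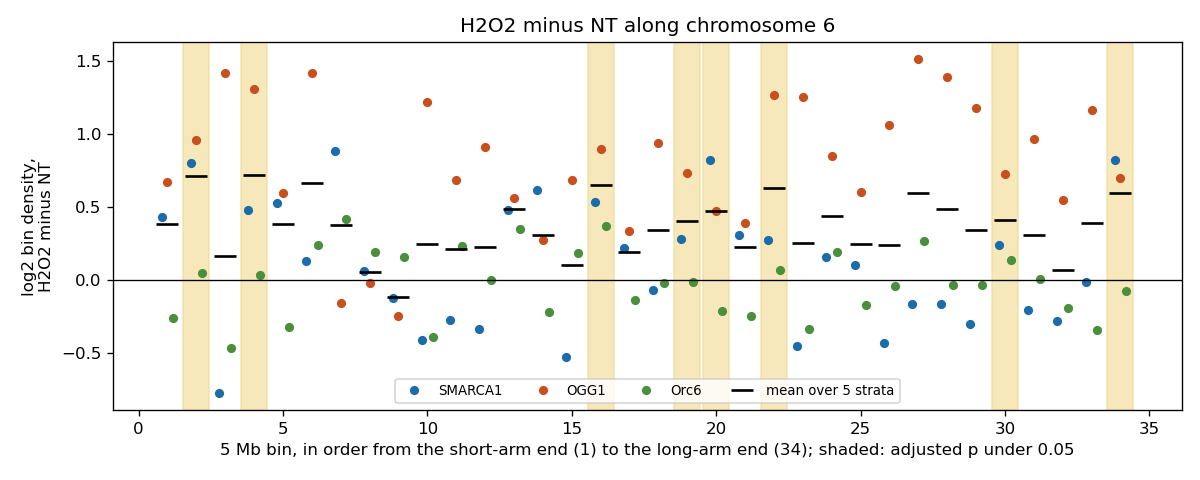
Difference in log2 bin density (plus 0.1), H2O2 minus NT, in 34 bins in order along chromosome 6, with points per antibody, black bars for the mean over 5 strata and shading for the 8 bins with an adjusted p under 0.05. OGG1 points are above 0 in 31 of 34 bins, SMARCA1 points in 19 and Orc6 points in 16.

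The balance between the sides of the empty stretch was compared as a ratio. The density before 28510432 divided by that after 33480034 was 0.315 to 0.785 in single libraries. It was 0.587 to 0.785 in OGG1 libraries after H2O2, against 0.315 to 0.414 in OGG1 NT libraries, without overlap. Over all libraries H2O2 minus NT was 0.34 on the log2 scale (p = 0.0468, adjusted over 2 comparisons p = 0.0694, exact permutation) and siOrc6 minus siGl3 was 0.26 (p = 0.0694, adjusted p = 0.0694), so that neither passed. The H2O2 difference passed without Orc6 siGl3 H2O2 replicate 2 (0.39, adjusted exact permutation p = 0.0376) and without SMARCA1 siGl3 NT replicate 2 (0.38, adjusted p = 0.0494). Split instead at the next longest stretch without a region, near the centromere from 58353598 to 60229940, it was -0.36.

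Little of chromosome 6 was covered in every library. In all 20 libraries 38 stretches, 43.6 kb in sum, were covered, 9 of them between 35 and 45 Mb. They were 8 to 3011 bp long. The same values for the other autosomes are not given here. The sum is also bounded by the shortest list, SMARCA1 siGl3 NT replicate 1, with 278 members. A gene end lay within 1 kb of 18 stretches, and 25 overlapped a gene. Of 805 genes, 26 or 3.23% were occupied in all 20 libraries, against 5.25% of genes on the other autosomes, and 8.45% were occupied in none, against 10.4%. Regions at CDKN1A had a percentile of total signal of 75.2 to 99.6 across libraries and a mean of 92.2. EEF1A1 averaged 92.4, GCLC 86.1, FBXO5 82.5, CCN2 81.3 and COL12A1 74.8. Further genes occupied in all 20 libraries included BAG2 (a cochaperone of HSP70) with a mean percentile of 88.5, EZR (ezrin, a linker of membrane and actin) with 84.9 and NFYA (a subunit of the factor that binds CCAAT) with 84.1.

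**Figure D5:**
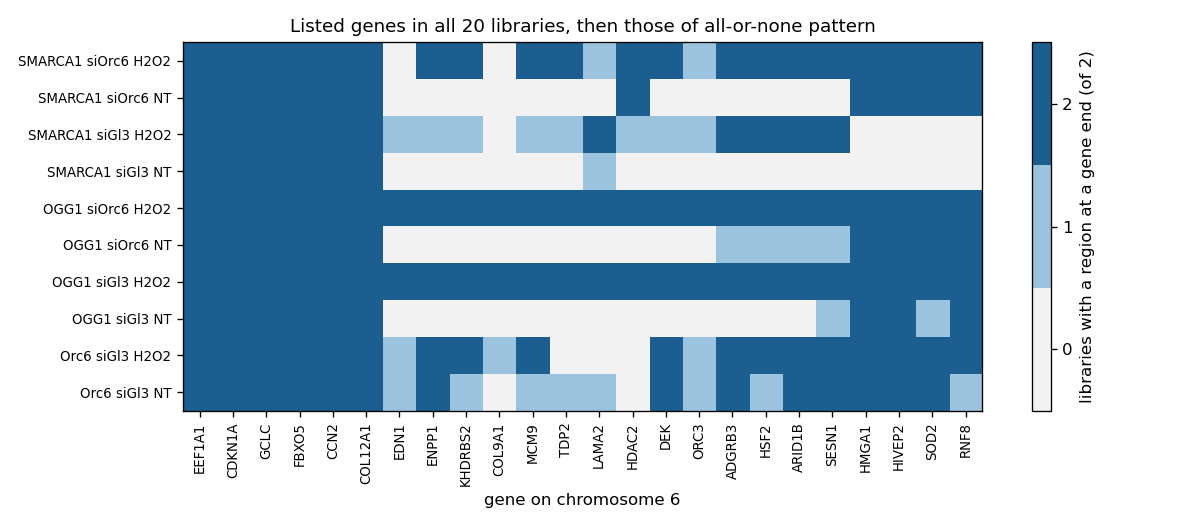
Number of libraries (of 2) with a region at a gene end, for 10 groups and 24 listed genes of chromosome 6, with the 6 genes occupied in all 20 libraries at the left. The 10 genes from EDN1 to ORC3 are at 2 in both OGG1 H2O2 groups and at 0 in both OGG1 NT groups.

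Base composition of the promoters went with occupancy. For 18 promoters of chromosome 6 covered in all 20 libraries the median GC content was 63.2%, for 598 covered in some it was 63.3%, and for 94 covered in none it was 49.7%. A GC box was found in 77.8%, 64.9% and 41.5% of these sets in that order, and a TATA box in 16.7%, 9.36% and 26.6%. On the other autosomes the median GC content was 65.3% in 528 promoters covered in all libraries and 49.2% in 1906 covered in none. Within single libraries the covered promoters of chromosome 6 had the higher median GC content in 19 of 20.

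Many chromosome 6 genes were occupied by OGG1 in H2O2 libraries and in no NT library. In 117 of 805 genes a region lay at a gene end in 4 of 4 OGG1 libraries after H2O2 and in 0 of 4 OGG1 NT libraries, and in 0 genes the reverse held, where 7.37% and 0% of 19970 protein-coding genes did so. Each had p = 0.0286 by Fisher's exact test and an adjusted p of 0.0345 over the genes occupied in exactly 4 of 8 libraries. Fisher's exact test pools the siRNAs. Permuted within siRNA, as the bins were, 4 libraries against 4 cannot go below an exact p of 0.0556, so 0 genes could pass. The 117 were 14.5% of the members. Among listed genes the count was 6 of 17 for replication and cell cycle, 3 of 13 for long genes, 2 of 16 for mesenchyme and bone, 2 of 9 for chromatin, 2 of 9 for translation, and 1 each of 9, 11 and 12 for DNA repair, stress, and signalling. For genes of other lineages, listed for being silent in bone cells, it was 0 of 18.

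The replication genes included ORC3, a subunit of the origin recognition complex, MCM9, a helicase of recombination repair, and DEK, a chromatin-binding oncoprotein. In OGG1 libraries each was occupied in 4 of 4 after H2O2 and in 0 of 4 in NT cells. TDP2, which frees DNA ends from trapped topoisomerase, and HDAC2, a histone deacetylase, had the same pattern, as did ENPP1, COL9A1, LAMA2, KHDRBS2 and EDN1. EDN1 had the highest mean percentile of total signal of these, 88.9, at an annotated end apart from the printed promoter, whose window was also covered in 1 OGG1 NT library. MCM9 had a mean percentile of 62.0, TDP2 57.2, HDAC2 53.9, DEK 53.1 and ORC3 52.1. Among unlisted genes the mean percentile was 96.6 at BYSL (a protein of small ribosomal subunit assembly), 89.8 at GCM1 (a placental transcription factor), 87.0 at PRR18, 84.7 at GUCA1ANB-GUCA1A and 82.2 at AIG1, the highest of the pattern. The pattern went with the length of the lists, given above. In lists of equal length, here cut to the 17813 regions of the shortest OGG1 list, it held at 3 genes, 1 higher and 2 lower. It held at 14, all lower after H2O2, where OGG1 lists were trimmed to equal covered bases. Blocked by replicate number, 0 genes can pass, since the smallest p of an exact sign test over 4 pairs is 0.125.

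SMARCA1 showed the pattern at fewer genes and without passing. For H2O2 against NT it held at 32 of 805 genes, where 2.55% of all genes did so, and in the reverse direction at 0, where 0.025% did so (adjusted p = 0.108, Fisher's exact test). The listed ones were HSF2 and SESN1 of the stress list, ARID1B (a subunit of the BAF remodeller) and ADGRB3, each at 4 of 4 libraries after H2O2 and 0 of 4 in NT cells. SESN1, a sestrin induced by p53, had a percentile of total signal of 4.00 to 80.1 in its H2O2 libraries, and HSF2, a heat shock transcription factor, of 67.4 to 77.2. Outside the lists LOC127898563, STX7, CYP39A1, SLC25A27 and POLR1C had the highest percentiles, of 71.9 to 76.0. LOC127898563 had the same percentile as ADGRB3, and CYP39A1 the same as SLC25A27. The count was 63 without SMARCA1 siGl3 H2O2 replicate 1 and 55 without SMARCA1 siGl3 H2O2 replicate 2, and 1 in lists of equal length.

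For siOrc6 against siGl3, SMARCA1 had the pattern at 24 genes upward and at 3 downward, where 3.93% and 0.0401% of all genes did so (adjusted p = 0.0697, Fisher's exact test). HMGA1 was occupied in 4 of 4 siOrc6 libraries at a percentile of 96.0 to 99.3 and in 0 of 4 siGl3 libraries. All 4 OGG1 siOrc6, 4 OGG1 siGl3 and 4 Orc6 libraries had a region there, so that the SMARCA1 siGl3 libraries alone lacked it. The same SMARCA1 pattern held at SOD2, the mitochondrial superoxide dismutase, RNF8, a ubiquitin ligase of the double-strand break response, and HIVEP2, a zinc finger transcription factor. Outside the lists it held with the highest percentiles at LOC124901225, which overlaps HMGA1, LOC124900214, MYMX (a muscle fusion protein), PGC (pepsinogen C) and CGAS, the sensor of cytosolic DNA. Downward it held at PTCHD4, TMEM244 and NCOA7. In lists of equal covered bases the pattern held at 4 genes upward and 5 downward, and with gene ends widened to 5 kb at 8 and 3. Without SMARCA1 siGl3 H2O2 replicate 2 the count of 27 was 55. In OGG1 the pattern held at 0 genes in either direction, where 0% of all genes were higher and 0.00501% lower.

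The authors' deposited tables for SMARCA1 in siOrc6 cells list windows named up and ns for each treatment and give positions only. Density here is the share of the number of windows, not of covered bases, over the share of length. Counted likewise by number of regions, the 20 libraries had densities of 0.492 to 0.869. On chromosome 6 the authors' deposited table of H2O2 holds 439 up windows, a density of 0.634, and 909 ns windows, a density of 0.510. For NT the authors' deposited table holds 229 up windows, a density of 0.576, and ns windows at a density of 0.646, which are 3.69% of all its ns windows. Between 35 and 45 Mb lie 99 up and 198 ns windows of H2O2, and 71 up and 26 ns windows of NT, in the authors' deposited tables. Between 50 and 60 Mb the authors' deposited tables hold 18 up and 136 ns windows of H2O2, and 16 up and 31 ns windows of NT. The sources used here do not state which libraries these windows compare.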

How the data were processed

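Per the labels, CUT&RUN libraries were sequenced as paired reads. Among the tools in the submitters' processing notes are SEACR 1.1, Bowtie2 and bedtools, with build hg38 and no roles stated. A deposited list gives, for each region of a library, the authors' total and maximum signal, and no source used here states how signal was normalized. Signal was used only as a rank within a list, and depth is unknown. The deposited windows named up and ns hold a value whose meaning is not given, which was not used. Of 34 samples, 14 were not analysed here.

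The members, gene lists and tests were chosen with earlier results of these data known. Named genes were listed genes occupied in all 20 libraries or in 4 of 4 against 0 of 4 (at most 10 per direction), then the 5 others of highest mean percentile, with the highest and lowest bins, and 1 gene is not reported here. Chromosome length was the farthest region end, on chromosome 6 alone less the window and the empty stretch. Bins with under 20% of their length left were dropped. Densities were tested on the log2 scale by exact two-sided permutation within strata, adjusted by Benjamini-Hochberg over 22 autosomes, 2 side ratios or 563 bins (pseudocount 0.1, threshold 0.05). Gene ends came from RefSeq GRCh38.p14 and were tested by Fisher's exact test. Replicate numbers stand for batches in the labels, which would pair the libraries. The main permutations left this pairing out, and only the replicate block used it. Deviations of same-numbered H2O2 and NT libraries correlated over 563 bins at 0.59 and -0.19 in SMARCA1 siGl3 and siOrc6 cells, 0.23 and -0.87 in OGG1 siGl3 and siOrc6 cells and 0.35 in Orc6 cells. The bin and gene tests were run on simulated data with independent bins and planted differences. Those data had no batches and no lists of unequal length, so they could not check the part of list length. Software was scipy 1.17.1 and numpy 2.4.6 under Python 3.11.15, with matplotlib 3.10.9 and pandas 2.3.3.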

Additional observations from a re-analysis of the deposited data

Results flagged for a closer look

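The H2O2 difference in the density of chromosome 6 was compared between antibodies, and the comparison had an unadjusted p under 0.05 but did not pass after adjustment. H2O2 minus NT was -0.11 on the log2 scale in SMARCA1 libraries and 0.59 in OGG1 libraries, a difference of -0.69 (p = 0.0154, exact permutation). Adjusted over 22 autosomes p was 0.130 (exact permutation). H2O2 was higher in 0 of 4 same-numbered pairs of SMARCA1 and in 3 of 4 of OGG1.

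The lists also hold regions on alternative sequences of chromosome 6, which entered no comparison above. There were 72 of them, in 8 of 10 H2O2 libraries and in 0 of 10 NT libraries. OGG1 siGl3 H2O2 libraries held 14 and 14, OGG1 siOrc6 H2O2 libraries 8 and 11, and SMARCA1 siOrc6 H2O2 libraries 11 and 7. SMARCA1 siGl3 H2O2 replicate 1 held 3 and Orc6 siGl3 H2O2 replicate 1 held 4. The part of list length in this was not tested.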

How the results depend on the processing

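Of 341 alternative values, 13 of them chosen after seeing the data, 296 stayed the same, 7 reversed, 6 newly passed and 32 counts moved. The tally includes settings that could not move a log2 difference in density, so it does not measure stability. Among them are keeping the length of the empty stretch, which rescales all libraries alike, and the replicate block, which can change only the p-value. Densities and side ratios stayed the same when they kept direction and side of the threshold. Counts of bins or genes stayed the same within 1.5 times of the main count, with both directions added together. The 7 reversed values therefore leave out changes of direction within a count, given below. The cause of these changes was not tested except where the setting itself has fewer regions. On the log2 difference in density, lists of equal length gave -0.091 for H2O2 minus NT, and counting regions or leaving out regions of 10 kb or more gave -0.15 and -0.24 for SMARCA1 minus OGG1, -0.094 and -0.14 for SMARCA1 minus Orc6, and -0.73 and -0.76, both passing, for the H2O2 change in SMARCA1 minus that in OGG1. The log2 difference in side ratio for H2O2 was -0.36 split near the centromere, an alternative chosen after seeing the data. Of H2O2 bins, 35 of 164 passed at 1 Mb and 2 of 17 at 10 Mb, 0 in lists of equal length, 0 with the replicate block and 0 with the numbers of the block crossed in siOrc6 cells. For SMARCA1 against OGG1, 2 bins passed by number of regions and 5 in lists of equal length. For genes, lists were made equal within each antibody. The all-or-none pattern held for OGG1 with H2O2 at 3 genes in lists of equal length, 2 of them lower, and at 14, all lower, at equal covered bases. SMARCA1 had 1 and 6 with H2O2 at these settings. With siOrc6 it had 9 at equal covered bases, 4 of them higher, and 11 within 5 kb, 8 of them higher. OGG1 with siOrc6 had 1 at equal covered bases. For genes the block was entered as 0 without a computation, since the exact sign test cannot go below p = 0.125. That 0 counts genes able to pass, not genes with the pattern, and SMARCA1 genes did not pass without the block either. Apart from the H2O2 bins, the replicate block changed no call of density, side ratio or bins.

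Leaving out 1 library gave log2 differences in density of 0.15 to 0.26 for H2O2 minus NT, -0.22 to -0.087 for siOrc6 minus siGl3, 0.03 to 0.16 for SMARCA1 minus OGG1, -0.026 to 0.13 for SMARCA1 minus Orc6, -0.36 to -0.20 for OGG1 minus Orc6, -0.27 to -0.0023 for the H2O2 change in siOrc6 minus siGl3 cells and -0.83 to -0.56 for that in SMARCA1 minus OGG1. SMARCA1 minus Orc6 was below 0 without Orc6 siGl3 NT replicate 1. Log2 differences in the side ratio were 0.30 to 0.39 for H2O2 and 0.22 to 0.30 for siOrc6. H2O2 bins numbered 1 to 11. Genes numbered 121 to 175 for OGG1 with H2O2, 32 to 63 and 27 to 55 for SMARCA1 with H2O2 and siOrc6, and 0 to 1 for OGG1 with siOrc6. Assembly lengths and, for the density and side ratio of libraries left without a region, some equal lists could not be run. Groups of 2, lists of unequal length and unknown depth limit all comparisons.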

Other observations

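Between 158644553 and 158853465 on chromosome 6 lay 6 of the 38 stretches covered in all 20 libraries. They lay at DYNLT1 (a dynein light chain), within SYTL3 (a synaptotagmin-like protein) and at EZR, except the last. That stretch, from 158853443 to 158853465, was 23 bp long and had no protein-coding gene within 1 kb. Another, within SYTL3, was 51 bp long. Of the 38 stretches, 12 neither overlapped a protein-coding gene nor lay within 1 kb of one of its ends. Among them a pair lay at 37135893 to 37136225 and 37136544 to 37138286, and another pair at 44041459 to 44041994 and 44043267 to 44044736.

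Genes listed for being silent in bone cells were mostly free of regions, with a median of 1 of 20 libraries and 8 of 18 genes at 0, among them HCRTR2, HTR1B, PLG, PRL and CRISP1 to CRISP3. GRM4, a glutamate receptor gene in the dense part of the short arm, was occupied in 9 libraries. RUNX2, the main transcription factor of bone formation, was occupied in 7 of 20, with 2 of 2 Orc6 libraries after H2O2, 1 of 2 Orc6 NT libraries, 2 of 4 OGG1 libraries after H2O2, 1 of 4 OGG1 NT libraries, 1 of 4 SMARCA1 libraries after H2O2 and 0 of 4 SMARCA1 NT libraries. ESR1 and ROS1 were occupied in 0 libraries.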
